A study of Mus musculus with 8 samples.

Results

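The aldehyde dehydrogenases described here were 10 genes: Aldh1l1, Aldh18a1, Aldh4a1, Aldh6a1, Aldh7a1, Aldh9a1, Aldh2, Aldh3a1, Aldh3a2 and Aldh1a3. They were found by gene name among the 30139 names on the array, where 14 probes carried them. Each gene was read from its brightest probe over all 8 arrays, 6 of the genes having 1 probe and 4 having 2. The genes were chosen by their family together with their measured differences after miR-193b and miR-365a, with no numeric threshold. Those differences are therefore given as description with their standard errors and without p-values, and counts of these genes past the threshold of the fit are printed beside the share of all genes and not used as evidence.

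The arrays measured messenger RNA in mSCC-20 cells, a mouse skin squamous cell carcinoma line of FVB/N background, after transfection with a control microRNA (NC), miR-193b or miR-365a. An amount of 0.2 µg is labelled on 4 samples (NC replicates 1, 2; miR-193b replicates 1, 2) and one of 0.6 µg on the others (NC replicates 3, 4; miR-365a replicates 1, 2), without saying of what. Each microRNA was set against the 2 NC arrays of its own amount. All samples had an RNA integrity number of 10. The line stands for 1 tumour, and nothing states that replicates are separate cultures, so errors and p-values reflect the spread among the arrays alone, which may be technical.

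Aldehyde dehydrogenases oxidise aldehydes to carboxylic acids with NAD or NADP as the acceptor. Some clear toxic aldehydes that come from alcohol, lipid peroxidation or fatty alcohols. Others are dedicated steps of metabolism, in folate one-carbon transfer, in the breakdown of proline, valine and lysine, in carnitine synthesis, or in the making of retinoic acid, which controls the differentiation of epidermal cells. MicroRNAs pair through their seed, bases 2 to 8, with sites in messenger RNAs and lower their levels.

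The mature microRNAs are shown for their seeds. Besides the microRNA, the miR-193b and miR-365a arrays differ in amount, slide and scan day. The labels name no arm, and the 3p arms are given, from RefSeq on GRCm38.p6, with the seed in capitals. The hairpins lie 4238 bases apart on the plus strand of chromosome 16, where the mature sequences occupy chr16:13449570-13449591 and chr16:13453895-13453916.
mmu-miR-193b-3p: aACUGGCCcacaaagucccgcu
mmu-miR-365-3p: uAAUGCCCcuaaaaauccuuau
The seeds differ. The complement of the miR-193b seed, GGCCAGT, stood in 0 of the 14 probes of these genes and in 0.294% of all probes, and that of the miR-365 seed, GGGCATT, in 0 of 14 and 0.312%. A probe covers 60 bases of a transcript, so this says only that the letters are not in the probes.

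Upstream sequence from RefSeq was matched for 6 of the 10 genes. The 250 bases before the start are printed for Aldh1l1, Aldh6a1 and Aldh4a1, whose levels were higher after one or both microRNAs, and for Aldh18a1, whose levels differed little. Capitals mark CCAAT on either strand, read as ATTGG where it is on the opposite one, and the palindrome CACGTG, which do not overlap each other here. Build GRCm38.p6 gives the windows as chr6:90550543-90550792 on the plus strand for Aldh1l1, chr12:84451025-84451274 on the minus strand for Aldh6a1, chr4:139622644-139622893 on the plus strand for Aldh4a1 and chr19:40588464-40588713 on the minus strand for Aldh18a1.
Aldh1l1: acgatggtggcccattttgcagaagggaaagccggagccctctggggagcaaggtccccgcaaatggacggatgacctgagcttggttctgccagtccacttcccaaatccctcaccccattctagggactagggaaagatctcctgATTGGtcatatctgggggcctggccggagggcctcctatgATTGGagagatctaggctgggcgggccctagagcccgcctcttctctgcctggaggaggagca
Aldh6a1: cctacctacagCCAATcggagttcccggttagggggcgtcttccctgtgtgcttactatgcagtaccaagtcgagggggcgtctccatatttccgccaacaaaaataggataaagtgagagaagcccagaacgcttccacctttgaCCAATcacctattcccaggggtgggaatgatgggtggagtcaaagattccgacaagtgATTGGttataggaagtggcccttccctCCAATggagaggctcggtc
Aldh4a1: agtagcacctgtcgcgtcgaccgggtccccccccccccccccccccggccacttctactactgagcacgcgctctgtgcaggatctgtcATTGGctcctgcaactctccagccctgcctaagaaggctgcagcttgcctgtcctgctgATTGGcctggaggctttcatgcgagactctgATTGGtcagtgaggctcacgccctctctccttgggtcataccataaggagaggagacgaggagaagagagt
Aldh18a1: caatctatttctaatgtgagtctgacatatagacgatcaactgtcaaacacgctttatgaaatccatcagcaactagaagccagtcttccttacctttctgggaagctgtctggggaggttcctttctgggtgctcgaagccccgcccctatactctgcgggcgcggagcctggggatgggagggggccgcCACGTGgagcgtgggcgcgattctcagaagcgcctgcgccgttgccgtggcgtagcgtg
CCAAT occurred 2 times in the Aldh1l1 window, 4 times in that of Aldh6a1, 3 times in that of Aldh4a1 and 0 times in that of Aldh18a1. The other listed start of Aldh6a1, not printed, had 1 match, as did Aldh9a1 and Aldh3a2. Of all 32851 windows of this length, 33.8% held CCAAT at least once, 10.1% at least 2 times, 2.79% at least 3 times and 0.84% at least 4 times. CACGTG occurred 1 time upstream of Aldh18a1 and 1 time upstream of Aldh3a2, and in 6.02% of all windows. The other motifs searched on both strands were GGGCGG (32.7% of all windows), TATAAA (12.4%), GCGTG, the core bound by the aryl hydrocarbon receptor (28.2%), and TGACNNNGC, the core of antioxidant response elements (10.2%). TATAAA was in none of the 7 windows of these 6 genes, and TGACNNNGC only in that of Aldh9a1. GCGTG occurred 3 times for Aldh18a1, 2 times each for Aldh4a1 and Aldh9a1, 1 time for Aldh3a2 and not in the others. GGGCGG occurred 1 time each for Aldh18a1, Aldh1l1 and Aldh3a2 and not in the others. A match is a run of letters and not a measured binding site, and a link between matches and differences was not tested.

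Between 51.4% and 54.6% of the 43020 gene spots were well above background on the 4 arrays at 0.2 µg, and 58.9% to 62.1% at 0.6 µg, with 0 saturated spots. All 9 keratinocyte markers, Krt5, Krt14 and Trp63 among them, were well above background on all 8 arrays. Col3a1, Dcn and Lum of fibroblasts, Lyz2 of leukocytes, Dct of melanocytes, Cdh5 and Tek of endothelium and Adipoq of fat were above background on none. Pdgfra of fibroblasts, Cd68 and Cd3e of leukocytes, Mlana of melanocytes, Kdr of endothelium and Fabp4 of fat were above background on all 8, which made 1 of 7 fibroblast, 2 of 6 leukocyte, 1 of 4 melanocyte, 1 of 4 endothelial and 1 of 3 fat cell markers. Thy1 and Col1a2 of fibroblasts were above background on the 4 arrays at 0.6 µg alone. The arrays at 0.2 µg lie on 3 slides and those at 0.6 µg on slide 4, scanned on another day, so amount, slide and scan day cannot be told apart.

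Of the 10 genes, 9 were well above background on all 8 arrays, so none of these 9 entered the fit through 1 group alone. Aldh1a3 was above background on none of the 8 arrays and was not tested. After miR-193b, 4 of the 9 were higher on both arrays than on both NC arrays, 2 were lower on both and 3 overlapped. Over all 17856 genes tested, 52.2% did not overlap in this comparison, 29.9% being higher and 22.3% lower. After miR-365a, 6 of the 9 were higher on both arrays, 1 was lower on both and 2 overlapped, against 61.6% of all genes without overlap, 33.7% higher and 27.9% lower. The median log2 difference of the 9 was 0.23 after miR-193b, beside 0.05 over all genes, and 0.78 after miR-365a, beside 0.02.

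**Figure D1:**
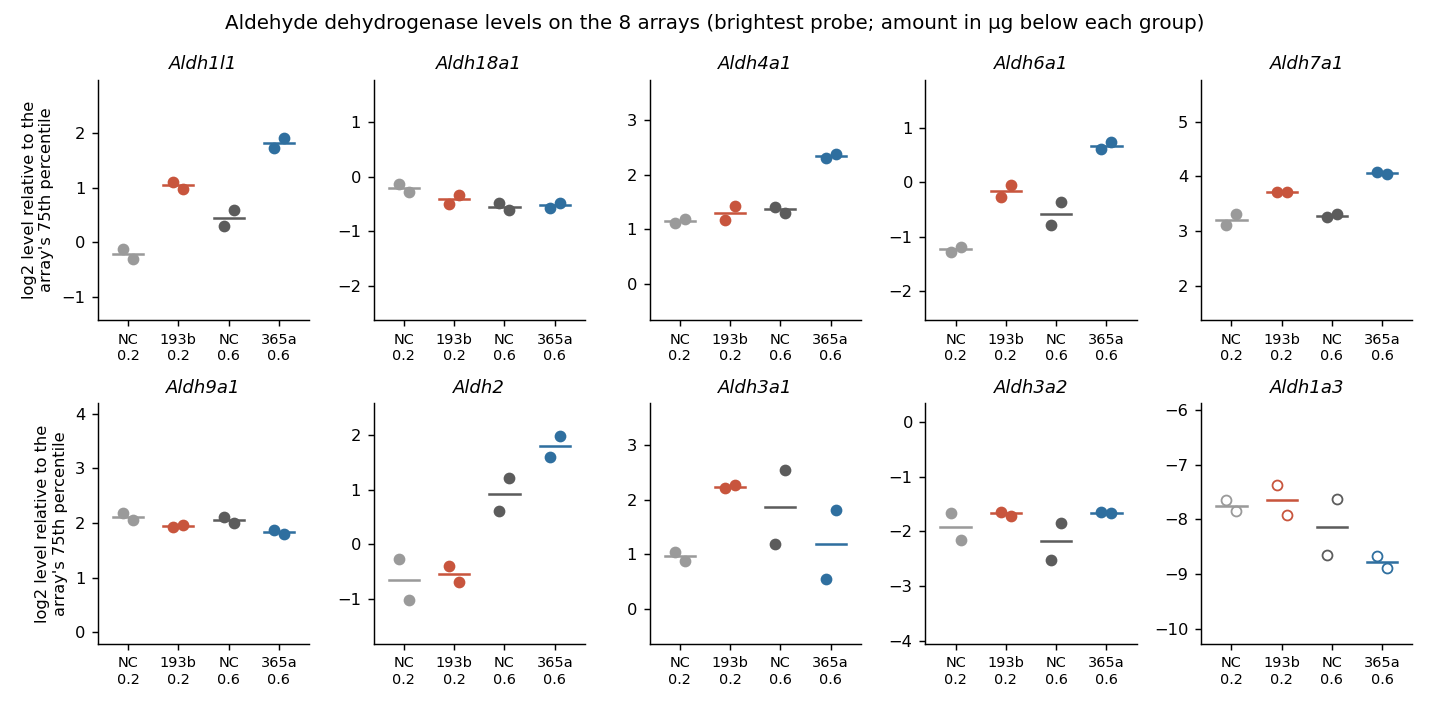
Log2 level of each of the 10 genes on each of the 8 arrays, relative to the array's 75th percentile of gene spots; a bar marks the mean of 2 arrays, open points are not well above background, and every panel spans the same number of log2 units. Aldh1l1 and Aldh6a1 lay higher on both microRNA pairs than on their NC pairs, Aldh4a1 only on the miR-365a arrays, and Aldh3a1 spread widely at 0.6 µg.

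By the fit with limma over all 17856 genes, 2 of the 9 were past an adjusted p of 0.05 after miR-193b, Aldh1l1 and Aldh6a1, both higher. In that comparison 2.91% of all genes were past it, 1.75% higher and 1.15% lower. After miR-365a it was 4 of the 9, Aldh1l1, Aldh6a1, Aldh4a1 and Aldh7a1, all higher, against 15.8% of all genes, 7.77% higher and 7.99% lower. Because the genes were chosen with these comparisons known, nothing is read from either count. Without any 1 of the 4 arrays at 0.2 µg, or without either miR-365a array, neither Aldh1l1 nor Aldh6a1 was past the threshold after miR-193b. Without miR-365a replicate 2, Aldh6a1, Aldh4a1 and Aldh7a1 were not past it after miR-365a, nor was Aldh7a1 without miR-365a replicate 1 or NC replicate 3. Over all 17856 genes, 3806 had an unadjusted p under 0.05 after miR-193b and 5570 after miR-365a. Such counts are given for the pathway lists below, which were also chosen with earlier results of these data known and are description. Levels below are log2 values relative to the 75th percentile of the gene spots on each array. Differences are log2 with the standard error of the fit, each from 2 arrays against 2.

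Aldh1l1 encodes the cytosolic 10-formyltetrahydrofolate dehydrogenase, which releases a folate-bound one-carbon unit as carbon dioxide. Its main probe lies at chr6:90549091-90549150 in the mm9 coordinates of the files. The log2 level was -0.12 and -0.30 on the NC arrays and 1.11 and 0.98 on the miR-193b arrays at 0.2 µg. The NC arrays at 0.6 µg had 0.30 and 0.59 and the miR-365a arrays 1.73 and 1.91. Every microRNA array was above every NC array, also across the amounts. The difference was 1.25 ± 0.15 after miR-193b, a 2.38-fold level, and 1.38 ± 0.15 after miR-365a, a 2.60-fold level. Within slide 1 the miR-193b array was 1.22 above its NC array, and the array of slide 3 was 1.27 above that of slide 2. From low to high the group means ran NC at 0.2 µg (-0.21 ± 0.13, SD, n = 2), NC at 0.6 µg (0.44 ± 0.20), miR-193b (1.04 ± 0.09) and miR-365a (1.82 ± 0.13), with no overlap between neighbours. The other probe, to an Ensembl transcript, was above background on 1 array only, NC replicate 4, so averaging the probes gave a difference of 0.67 after miR-193b and 0.26 after miR-365a, with an SE of 0.73.

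Folate one-carbon metabolism, to which Aldh1l1 belongs, was read through 16 other measured genes. Of these 0 were past the threshold after miR-193b with limma (2 at an unadjusted p under 0.05). After miR-365a 3 of the 16 fell and 0 rose, beside 15.8% of all genes called. Those that fell were Mthfd2l (by 0.60 ± 0.12, adjusted p = 0.0215) and Mthfd2 (by 0.49 ± 0.11, adjusted p = 0.0326), mitochondrial methylenetetrahydrofolate enzymes, and Fpgs (by 0.58 ± 0.13, adjusted p = 0.0333), which adds glutamates to folate. The median of the list was -0.10 after miR-193b and -0.20 after miR-365a. Aldh1l2, the mitochondrial counterpart of Aldh1l1, had a difference of 0.84 ± 0.51 after miR-193b and -0.35 ± 0.51 after miR-365a and was not called in either comparison.

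Aldh18a1 encodes pyrroline-5-carboxylate synthase, which starts proline synthesis from glutamate, and Aldh4a1 the mitochondrial dehydrogenase that returns pyrroline-5-carboxylate to glutamate. The Aldh4a1 log2 level was 1.11 and 1.19 on the NC arrays and 1.18 and 1.43 on the miR-193b arrays at 0.2 µg. At 0.6 µg it was 1.42 and 1.31 on the NC arrays and 2.30 and 2.39 on the miR-365a arrays. The miR-193b arrays overlapped their controls, whereas both miR-365a arrays lay above all 6 other arrays. The difference was 0.15 ± 0.13 after miR-193b and 0.98 ± 0.13 after miR-365a, a 1.97-fold level. The miR-193b difference minus that after miR-365a was -0.82 ± 0.18, given as description because the choice of genes used both comparisons. The comparisons also differ in amount, slide and scan day, from which the microRNA cannot be told apart in this gap. The probe lies at chr4:139205420-139205479 on mm9.

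The Aldh18a1 log2 level was -0.13 and -0.29 against -0.51 and -0.33 at 0.2 µg, and -0.49 and -0.61 against -0.58 and -0.48 at 0.6 µg, control arrays given before microRNA arrays. The miR-193b arrays lay just below their controls and the miR-365a arrays overlapped theirs. The difference was -0.21 ± 0.13 after miR-193b and 0.02 ± 0.13 after miR-365a. Among 11 measured genes of proline and glutamate metabolism, 0 were called after miR-193b with limma (3 at an unadjusted p under 0.05), and 2 fell and 0 rose after miR-365a. The 2 were Got1, the cytosolic aspartate aminotransferase (by 1.42 ± 0.11, adjusted p = 0.00312), and Glul, glutamine synthetase (by 1.44 ± 0.18, adjusted p = 0.00636). The called share of the list was 18.2%, beside 15.8% of all genes. Both of these calls held in all 18 alternative fits.

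Aldh6a1 encodes methylmalonate semialdehyde dehydrogenase, the mitochondrial enzyme that ends valine breakdown in propionyl-CoA. Its main probe lies at chr12:85771835-85771894 on mm9. The log2 level was -1.27 and -1.18 on the NC arrays and -0.27 and -0.05 on the miR-193b arrays at 0.2 µg. At 0.6 µg it was -0.78 and -0.37 on the NC arrays and 0.61 and 0.73 on the miR-365a arrays. As for Aldh1l1, all microRNA arrays lay above all NC arrays. The difference was 1.07 ± 0.17 after miR-193b, a 2.10-fold level, and 1.25 ± 0.17 after miR-365a, a 2.37-fold level. Within slide 1 the miR-193b array was 1.01 above its control, and slide 3 was 1.14 above slide 2. The second probe, dimmer and above background on 5 arrays, gave 0.79 ± 0.26 after miR-193b and 1.41 ± 0.26 after miR-365a.

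**Figure D2:**
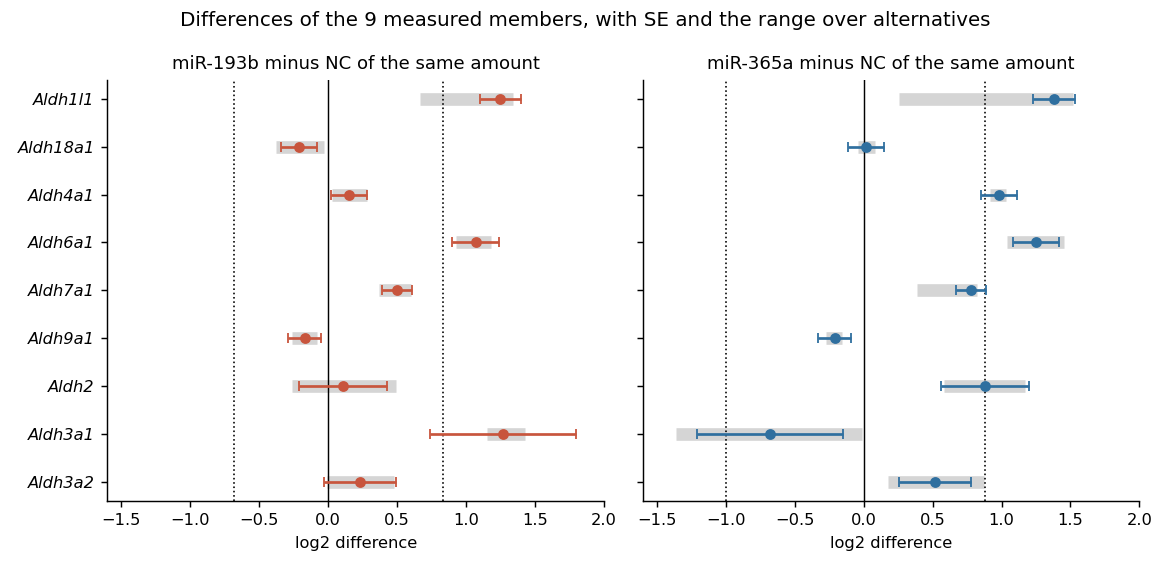
Log2 difference from the NC arrays of the same amount for the 9 measured genes after miR-193b (left) and miR-365a (right). Points with bars are the difference and its SE, grey bands the range over alternative processing and left-out arrays, and dotted lines the 5th and 95th percentile of all 17856 genes (-0.68 and 0.83 after miR-193b). The Aldh1l1 bands reach down to 0.67 and 0.26 through its dim second probe.

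The breakdown of branched-chain amino acids and propionate, of which Aldh6a1 is a step, was read through 25 other genes, all measured. After miR-193b 0 of the 25 were called with limma, and 12 had an unadjusted p under 0.05, beside 3806 of all 17856 genes. Of the 25 differences 21 were above 0, with a median of 0.29 beside 0.05 over all genes. After miR-365a 10 rose and 2 fell, 48.0% of the list beside 15.8% of all genes, with a median of 0.48 beside 0.02. The list was chosen with earlier results of these data known, so this share is description. Bckdha, a subunit of the branched-chain ketoacid dehydrogenase, rose by 1.10 ± 0.14 (adjusted p = 0.00750). Mccc2, a subunit of the leucine enzyme methylcrotonyl-CoA carboxylase, rose by 0.96 ± 0.14 (adjusted p = 0.00961). Dbt, the transacylase subunit of the same dehydrogenase as Bckdha, fell by 0.84 ± 0.14 (adjusted p = 0.0147), and Bcat1, the cytosolic aminotransferase, fell by 1.28 ± 0.19 (adjusted p = 0.0108), being above background on 1 of the 2 miR-365a arrays. The Bcat1 difference was -0.46 with normexp background correction and -0.33 with the deposited log2 values, and the call was lost in both, with adjusted p up to 0.173 over its alternatives. The Mccc2 call was lost with the mean of its probes, at 0.52, with adjusted p up to 0.103 over its alternatives. The others called rose: Acadsb (1.11), Hibch (0.87), Bcat2 (0.78), Ivd (0.74), Hibadh (0.73), Bckdhb (0.53), Echs1 (0.48) and Pccb (0.48). Hibch and Hibadh stand just before Aldh6a1 in the valine pathway. The number called changed with each of the 4 arrays at 0.6 µg. It came to 0 in all without miR-365a replicate 1, to 1 rise and 0 falls without miR-365a replicate 2, to 1 rise and 1 fall without NC replicate 3, and to 2 rises and 1 fall without NC replicate 4. It was also 2 rises and 1 fall without a filter on dim probes, and 7 rises and 2 falls with each amount fitted alone or with the mean of probes.

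**Figure D3:**
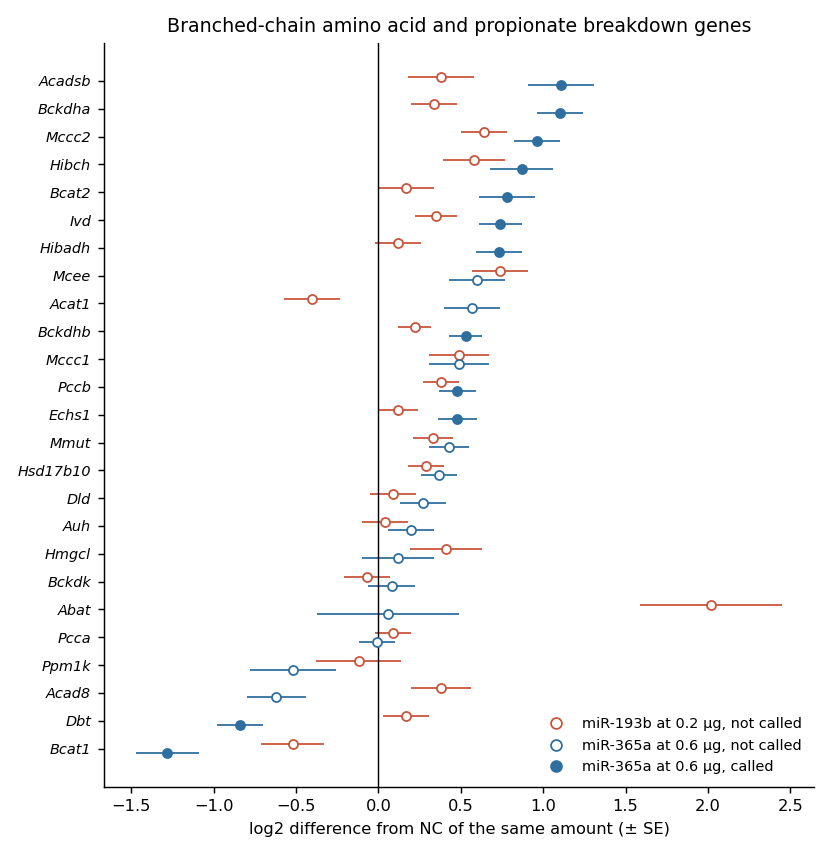
Log2 difference from the NC arrays of the same amount, with SE, for the 25 genes of branched-chain amino acid and propionate breakdown, ordered by the difference after miR-365a (blue) with miR-193b in red; filled points are past an adjusted p of 0.05. After miR-365a 10 genes rose and Dbt and Bcat1 fell, and after miR-193b none passed. Abat was highest after miR-193b at 2.02 ± 0.43, with 0.56 to 2.63 over its alternatives. It was above background on 0 of the NC arrays at 0.2 µg and on 1 miR-193b array.

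Aldh7a1 encodes the dehydrogenase of aminoadipic semialdehyde in lysine breakdown, and its gene is on chromosome 18. The log2 level was 3.12 and 3.31 on the NC arrays and 3.71 and 3.72 on the miR-193b arrays at 0.2 µg. The NC arrays at 0.6 µg had 3.26 and 3.31 and the miR-365a arrays 4.09 and 4.05. The 4 NC arrays lay close to each other, and the microRNA arrays lay above all of them. The difference was 0.50 ± 0.11 after miR-193b, a 1.42-fold level, and 0.78 ± 0.11 after miR-365a, a 1.72-fold level. The other probe was above background on 0 of the 8 arrays, and averaging it in gave 0.37 after miR-193b and 0.39 after miR-365a, not past the threshold in either.

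Aldh9a1 encodes the trimethylaminobutyraldehyde dehydrogenase of carnitine synthesis, read at chr1:169298245-169298304 on mm9. Its log2 level was 2.19 and 2.05 against 1.93 and 1.97 at 0.2 µg, and 2.11 and 2.00 against 1.88 and 1.80 at 0.6 µg, control arrays given before microRNA arrays. The microRNA arrays lay just below their controls in each set. The difference was -0.17 ± 0.12 after miR-193b and -0.21 ± 0.12 after miR-365a. Of the 11 genes listed for lysine breakdown and carnitine synthesis 6 were measured, and 0 were called in either comparison with limma (0 and 1 at an unadjusted p under 0.05). Slc22a5, the carnitine transporter, had 0.43 ± 0.13 after miR-365a (adjusted p = 0.0725).

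Aldh2 encodes the mitochondrial enzyme that clears acetaldehyde. Its 60-base probe spans 554 bases of the genome, at chr5:122022137-122022690 on mm9, so its bases are not adjacent in the genome. The log2 level was -0.27 and -1.02 on the NC arrays and -0.39 and -0.68 on the miR-193b arrays at 0.2 µg. The NC arrays at 0.6 µg had 0.62 and 1.21 and the miR-365a arrays 1.60 and 1.99. The miR-193b arrays lay between their controls and the miR-365a arrays above theirs, but the gap between the amounts was wider than either. The difference was 0.11 ± 0.32 after miR-193b and 0.88 ± 0.32 after miR-365a.

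Aldh3a1 encodes a cytosolic enzyme for aromatic and lipid-derived aldehydes that is known as an abundant corneal protein and as a target of the aryl hydrocarbon receptor. The log2 level was 1.05 and 0.88 on the NC arrays and 2.21 and 2.27 on the miR-193b arrays at 0.2 µg. At 0.6 µg it was 1.19 and 2.54 on the NC arrays and 0.54 and 1.82 on the miR-365a arrays. The 0.2 µg groups were tight and apart, while at 0.6 µg the arrays of each group lay far apart, with an SD of 0.95 for NC and 0.90 for miR-365a (n = 2 each). The difference was 1.27 ± 0.53 after miR-193b and -0.68 ± 0.53 after miR-365a. Within slide 1 the miR-193b array was 1.16 above its control, and slide 3 was 1.39 above slide 2. On slide 4 miR-365a replicate 1 differed by -0.65 from NC replicate 3, at positions 1 and 2. There miR-365a replicate 2 differed by -0.72 from NC replicate 4, at positions 3 and 4. Positions 2 and 3 are neighbours too, and miR-365a replicate 2 (1.82) was above NC replicate 3 (1.19). With these array pairs as a block, the SE was 0.10 and the gene was past the threshold after both microRNAs. This setting was chosen after seeing the data, as was the gene, so the pass is not used as evidence. With the array of NC replicate 3 or 4 or of miR-365a replicate 1 or 2 left out, the miR-365a difference ran from -1.36 to -0.01. The miR-193b difference exceeded that after miR-365a by 1.96 ± 0.75. That gap was not past the threshold of the fit over all genes, and it too is given as description. In it the microRNA cannot be told apart from amount, slide and scan day.

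The second Aldh3a1 probe moved in the same directions. It shares 53 of its 60 bases with the brightest, at chr11:61031857-61031916 on mm9, so it is no separate evidence. Its log2 level was 0.48 and 0.45 on the NC arrays, 2.07 and 2.04 on the miR-193b arrays, 0.63 and 2.24 on NC replicates 3 and 4, and -0.38 and 1.42 on the miR-365a arrays. Arrays of a group at 0.6 µg again lay far apart. Differences were 1.59 ± 0.69 after miR-193b and -0.92 ± 0.69 after miR-365a.

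**Figure D4:**
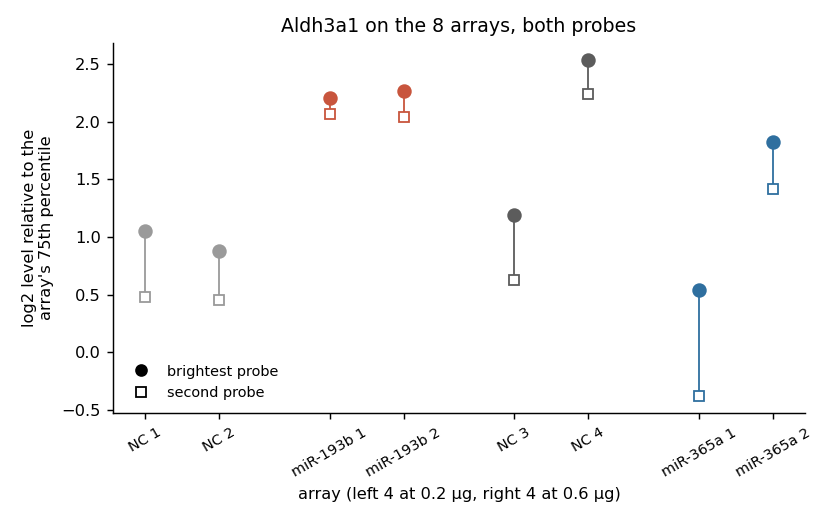
Log2 level of Aldh3a1 on each of the 8 arrays, relative to the array's 75th percentile, for the brightest probe (filled) and the overlapping second probe (open), a line joining the probes of an array. The brightest probe lay at 2.21 and 2.27 on the miR-193b arrays against 1.05 and 0.88 on their controls, while arrays of the same group at 0.6 µg were more than 1 log2 unit apart.

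The aryl hydrocarbon receptor and NRF2 pathways, to which Aldh3a1 can respond, were read through 18 genes, with regulators such as Ahr, Nfe2l2 and Keap1 among them. Of these, 14 were measured. The receptor targets Cyp1a1, Cyp1b1 and Ugt1a6a were above background on 0 arrays and Cyp1a2 on 1, so they were not tested. After miR-193b 0 were called with limma (2 at an unadjusted p under 0.05), with a median of 0.34. After miR-365a Srxn1, the sulfiredoxin gene and an NRF2 target, fell by 0.96 ± 0.15 (adjusted p = 0.0108), 0 rose, 7.14% of the list beside 15.8% of all genes, and the median was -0.11. Of the 14 differences after miR-365a 5 were above 0. The highest was that of Hmox1, another NRF2 target, at 1.41 ± 0.41, which was not called. After miR-193b Srxn1 had 0.53 ± 0.15 (adjusted p = 0.110).

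Aldh3a2 encodes the fatty aldehyde dehydrogenase of the endoplasmic reticulum, which is needed for skin lipid metabolism. Its probe lies at chr11:61062365-61062424 on mm9. The log2 level was -1.66 and -2.15 on the NC arrays and -1.64 and -1.71 on the miR-193b arrays at 0.2 µg. The NC arrays at 0.6 µg had -2.53 and -1.84 and the miR-365a arrays -1.65 and -1.67. The microRNA arrays were close to each other, and the spread lay among the controls. The difference was 0.23 ± 0.26 after miR-193b and 0.52 ± 0.26 after miR-365a.

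Among 19 other measured enzymes that make or clear aldehydes, 0 were called after miR-193b with limma (2 at an unadjusted p under 0.05). After miR-365a 2 rose and 3 fell, 26.3% of the list beside 15.8% of all genes, and the median was 0.25. Maoa, the monoamine oxidase that makes aldehydes from amines, fell by 0.89 ± 0.10 (adjusted p = 0.00564), a call held in all 18 alternative fits. Glo1, the glyoxalase that clears methylglyoxal, fell by 0.85 ± 0.11 (adjusted p = 0.00791), and the aldo-keto reductase Akr1b8 by 0.73 ± 0.13 (adjusted p = 0.0179). The aldehyde reductase Akr1a1 rose by 0.57 ± 0.13 (adjusted p = 0.0350).

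Aldh1a3 encodes an enzyme that makes retinoic acid from retinaldehyde. Its single probe, at chr7:73535785-73535844 on mm9, was well above background on 0 of the 8 arrays, so no level or difference is given. Aldh1a1, Aldh1a2 and Aldh1a7 of the same subfamily were above background on 4, 1 and 0 arrays. Of 18 genes of retinoid metabolism and response 15 were measured, and 1 rose and 0 fell after each microRNA, 6.67% of the measured genes beside 2.91% and 15.8% of all genes. Stra6, the cell-surface transporter of retinol, rose by 1.74 ± 0.22 after miR-193b (adjusted p = 0.0245) and had -0.20 ± 0.22 after miR-365a. Rxra, the partner of the retinoic acid receptors, rose by 0.60 ± 0.14 after miR-365a (adjusted p = 0.0404). The Stra6 call was lost without NC replicate 1 or 2, miR-193b replicate 2 or either miR-365a replicate, with adjusted p up to 0.135 over its alternatives.

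Leaving out miR-365a replicate 2 ended the miR-365a calls of Rxra, Bckdha, Mccc2, Bcat1, Dbt, Mthfd2l, Mthfd2, Fpgs, Glo1, Akr1b8, Akr1a1 and Srxn1, and leaving out miR-365a replicate 1 ended the same calls apart from Akr1b8. Without NC replicate 3 those of Bckdha and Dbt held among these, and without NC replicate 4 those of Bckdha, Mccc2, Bcat1 and Glo1. The Rxra call also ended without NC replicate 1 or 2 or either miR-193b replicate, and those of Mthfd2 and Akr1a1 without either miR-193b replicate. Testing without a filter on dim probes ended the calls of Stra6, Rxra, Dbt, Mthfd2l, Mthfd2, Fpgs, Akr1b8 and Akr1a1, and fitting each amount alone those of Stra6, Rxra, Mthfd2 and Akr1a1. The Rxra call was also lost with the mean of its probes, and that of Akr1a1 with quantile normalization.

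The superfamily was listed by nomenclature, with earlier results of these data known, and 8 of the 11 genes outside the members were measured. Because the members were chosen partly by their differences, the calls among the rest depend on that choice and are description. With limma 0 of the 8 were called after either microRNA, beside 2.91% and 15.8% of all genes. At an unadjusted p under 0.05 there were 3 and 1 of the 8, beside 3806 and 5570 of all 17856 genes. Their median differences were 0.60 after miR-193b and 0.13 after miR-365a. Aldh3b1, whose product oxidises lipid aldehydes, had the smallest adjusted p among them after miR-365a. Its log2 level was -3.27 and -3.07 on the NC arrays and -2.35 and -1.62 on the miR-193b arrays, then -2.52 and -2.73 on the NC arrays and -1.24 and -1.81 on the miR-365a arrays at 0.6 µg. All microRNA arrays lay above all NC arrays. The difference was 1.19 ± 0.29 after miR-193b (adjusted p = 0.0872) and 1.09 ± 0.29 after miR-365a (adjusted p = 0.0525), past the threshold in 4 and 8 of 18 alternative fits (adjusted p from 0.0450 to 0.256 and from 0.0240 to 0.225). After miR-193b its relatives Aldh3b2 and Aldh3b3 differed by 1.88 ± 0.55 (adjusted p = 0.127) and 0.83 ± 0.17 (adjusted p = 0.0561), past the threshold in 1 of 17 and 4 of 18 alternative fits.

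**Figure D5:**
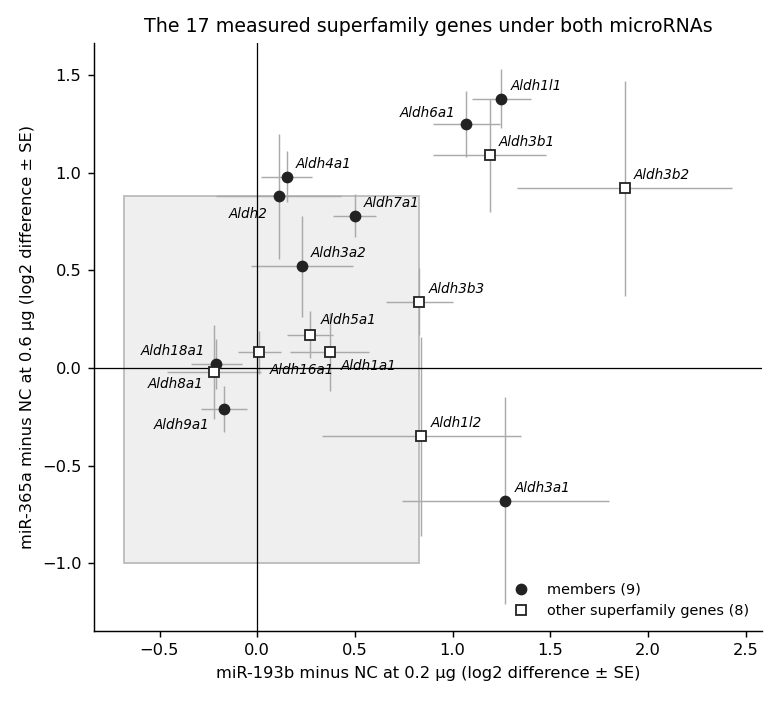
Log2 difference after miR-193b against that after miR-365a, with SE, for the 9 members (filled) and the 8 other measured genes of the superfamily (open squares); the grey box spans the 5th to 95th percentile of all genes in each comparison. Aldh1l1, Aldh6a1, Aldh3b1 and Aldh3b2 lie above and to the right of the box, Aldh4a1 above it and Aldh3a1 to its right. Aldh1l2, Aldh3b3 and Aldh2 lie at its edge.

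The control arrays of the amounts were compared in the same fit, a contrast that shares its NC arrays with the comparisons above. The members were chosen with those comparisons known, so their adjusted p-values and calls here are description. Of the 9 members, 2 were higher at 0.6 µg with limma and 0 lower, beside 15.5% of all genes called, 11.5% higher and 3.99% lower. The share of called genes that were higher, 74.3%, was 63.4% with normexp background correction and 61.1% with the deposited log2 values. Aldh2 was higher by 1.57 ± 0.32 (adjusted p = 0.0265), 2.96-fold, with all 4 arrays at 0.6 µg above all 4 at 0.2 µg. The call was lost with slide as a random block and without NC replicate 2 or 4. It held in 12 of 16 alternatives, being lost also without a filter on dim probes. Aldh1l1 was higher by 0.65 ± 0.15 (adjusted p = 0.0376), with the call held in 5 of 16 alternatives and lost when any 1 of the 8 arrays was left out. Aldh6a1 had 0.65 ± 0.17 (adjusted p = 0.0504), past the threshold in 6 of 16 alternatives.

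Some markers of other cell types differed between the amounts too. Of these Kdr (1.57 ± 0.25, adjusted p = 0.0140) and Cd3e (0.88 ± 0.18, adjusted p = 0.0269) were higher at 0.6 µg with limma. Thy1 (adjusted p = 0.0142) and Col1a2 (adjusted p = 0.0246) were also called higher, and were above background on 0 of the arrays at 0.2 µg. Pdgfra was lower at 0.6 µg (-0.57 ± 0.17, adjusted p = 0.0746) and Pecam1 had -0.03 ± 0.17, neither being called. Differences were above 0 for 2 of 3 tested fibroblast, 1 of 2 endothelial, 3 of 3 leukocyte and 3 of 3 melanocyte markers, and for the 1 fat cell marker. The summed linear level of the endothelial markers, relative to each array's 75th percentile, ran from 1.12 to 1.55 on the NC arrays at 0.2 µg and from 3.37 to 4.29 at 0.6 µg. That sum was mostly Kdr, whose log2 level was 0.58 and 0.09 on NC replicates 1 and 2. On NC replicates 3 and 4 Kdr had 1.73 and 2.08. For leukocyte markers the sum was 0.806 to 0.950 and 1.28 to 1.65, and for fibroblast markers 0.109 to 0.126 and 0.145 to 0.298. For keratinocyte markers it was 635 to 636 and 687 to 769. Of the 9 keratinocyte differences 5 were above 0, and Krt8 was called lower at 0.6 µg (-0.74 ± 0.14, adjusted p = 0.0237 with limma). What part cells of these types had in the differences between the amounts was not tested.

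Among the 8 other measured superfamily genes, 4 were higher at 0.6 µg and 0 lower. They were Aldh3b2 (3.36 ± 0.55, adjusted p = 0.0153), Aldh3b3 (2.22 ± 0.17, adjusted p = 0.00236), Aldh8a1 (1.22 ± 0.24, adjusted p = 0.0246) and Aldh5a1 (0.60 ± 0.12, adjusted p = 0.0266), the last of these encoding succinic semialdehyde dehydrogenase of the GABA pathway. The Aldh3b3 level was -3.93 and -3.90 on NC replicates 1 and 2 and -1.77 and -1.63 on NC replicates 3 and 4. The microRNA arrays at 0.6 µg, at -1.56 and -1.15, were likewise above those at 0.2 µg, at -3.17 and -2.99. Its call was lost only when its dim second probe was averaged in. Aldh3b2 and Aldh8a1 were above background on 7 and 6 of the 8 arrays. Leaving out NC replicate 3 or NC replicate 4 ended the calls of Aldh3b2, Aldh8a1 and Aldh5a1. NC replicate 1 did so for Aldh3b2 and Aldh5a1, NC replicate 2 for Aldh8a1 and either miR-365a replicate for Aldh5a1. The Aldh5a1 call was also lost with normexp (0.38), the deposited values (0.29), no filter on dim probes and slide as a random block, and held in 7 of 16 alternatives. The Aldh8a1 call was also lost with normexp (0.54) and no filter, and held in 10 of 15.

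Genes with the most similar course were looked up for Aldh1l1, Aldh6a1 and Aldh3a1, the members with the largest differences. Likeness was Pearson's r over the 8 arrays, with levels taken relative to the NC mean of each amount, among 14569 genes above background on all arrays. It is a description over arrays that share their controls and slides. For Aldh1l1 the nearest named genes were Acly, encoding ATP citrate lyase, with r = 0.998, and Canx, encoding the chaperone calnexin, with r = 0.993. For Aldh6a1 they were Tmem53 (r = 0.996), Gabarap, of autophagosome formation (r = 0.996), and Klc2, a kinesin light chain (r = 0.994). For Aldh3a1 they were P4ha2, a collagen prolyl hydroxylase subunit (r = 0.990), Brk1 (r = 0.989) and Kdm5a, a histone demethylase (r = 0.980). Similar course did not mean similar size. Acly differed by 0.57 and 0.59 after miR-193b and miR-365a, against 1.25 and 1.38 for Aldh1l1. Tmem53 differed by 1.41 and 1.51, against 1.07 and 1.25 for Aldh6a1. P4ha2 differed by 0.41 and -0.26, Brk1 by 0.07 and -0.04 and Kdm5a by 0.31 and -0.13, against 1.27 and -0.68 for Aldh3a1. For Aldh3a1 r also takes in the wide spread within groups at 0.6 µg.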

How the data were processed

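Total RNA of 8 samples was labelled with Cy3 and hybridised to 1-colour Agilent mouse arrays. The deposited scanner files hold an intensity per spot, background-subtracted by Feature Extraction 10.7.3.1 per the file headers, with probe positions on mm9. The authors' deposited value table holds log2 values, used here as an alternative; the submitters' processing notes name limma, and the background correction behind that table is not given in the sources used here. Its columns have medians of 7.04 to 7.05, and each correlated best with its own array (r from 0.965 to 0.981), so the values run in the same direction.

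Control spots and outlier-flagged spots were left out. From each log2 processed signal the array's 75th percentile over genes was subtracted, and replicate spots were averaged per probe. The brightest probe stood for a gene. A gene entered the test when this probe was well above background on every array of 1 or more of the 4 transfection-by-amount groups, as 17856 of 30139 names did. Names come from the files, updated through RefSeq. Linear models with terms for amount, miR-193b and miR-365a were fitted with limma 3.58.1 in R 4.3.3 on all 8 arrays (4 residual and 2.31 prior degrees of freedom), with Benjamini-Hochberg adjustment over all genes tested and a threshold of 0.05. With 8 arrays, their number limits the precision. The fit was checked on simulated data.

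The members, the superfamily and the 7 pathway lists were chosen with earlier results of these data known. From each pathway list the text names the called genes, up to 4 per comparison by smallest p. Otherwise it may name the 2 of smallest p. The remaining called branched-chain genes, Hmox1, the Aldh3b genes and the genes between the amounts were named after their values were seen. Sequences are from RefSeq tables on GRCm38.p6. Exon and UTR positions on mm9 were not used here. Alternatives covered background correction, normalization, the deposited values, the filter, the arrays fitted, the variance model, slide or array pairs as a block, the probe rule and each array left out. Python 3.11.15, pandas 2.3.3 and matplotlib 3.10.9 made the tables and figures.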

Additional observations from a re-analysis of the deposited data

Results flagged for a closer look

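Aldh1a2, which makes retinoic acid in many tissues, stood apart on 1 control array. On NC replicate 2 its log2 level was -2.88 and well above background, and on the other 3 NC arrays it was -7.59, -7.40 and -6.94 and not above background. The gap was 0.862 of the range of the 4 NC arrays. Chance puts about 1 in 20 such groups past the limit used, and the gene is in no comparison.

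For Aldh3a1 both miR-193b arrays lay above the mean of their NC arrays and both miR-365a arrays below theirs. The difference after miR-193b minus that after miR-365a was 1.96 ± 0.75. It was not past the threshold of the fit over all genes and is given as description, because the genes were chosen with both comparisons known. Amount, slide and scan day also differ between the comparisons and cannot be told apart from the microRNA. The log2 level of miR-365a replicate 2 was 1.82, against an NC mean of 1.86 at 0.6 µg with an SD of 0.95.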

How the results depend on the processing

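Each group and amount had 2 arrays, which limits every value here. The genes called after miR-193b, 519 here, numbered 975 with normexp, 802 with the deposited values, 11 without a filter, 871 with genes above background on all 8 arrays, 0 with each amount fitted alone (3108 at an unadjusted p under 0.05), 1042 with a trended robust variance, 1368 with array pairs as a block, 320 with the mean of probes, and 29 to 281 with 1 array left out. After miR-365a, 2814 became 1057 without a filter, 4411 with array pairs as a block and 588 to 2831 with 1 array left out. Between the amounts, 2772 became 1027 without a filter, 1376 with slide as a random block and 485 to 2401 with 1 array left out. Superfamily calls after miR-193b, 2 here, were 5 with normexp, with genes above background on all 8 arrays and with the trended variance, 6 with array pairs as a block, 0 without a filter, with each amount fitted alone and with the mean of probes, and 0 to 2 with 1 array left out. After miR-365a, 4 became 8 with array pairs as a block, 2 with the mean of probes and 1 to 5 with 1 array left out. Under the other alternatives these 5 counts stayed within 1.5 times. Superfamily calls between the amounts, 6 here, were 2 without a filter, 3 with slide as a random block and 1 to 5 with 1 array left out. The share of calls that were higher after miR-193b was 60.3% here and 70.6% with normexp. The causes were not tested. Array pairs (by slide, and by neighbouring position on slide 4) were added after seeing the data.

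The log2 differences of Aldh1l1, Aldh6a1, Aldh3a1, Aldh4a1, Aldh7a1, Aldh9a1 and Aldh18a1 after miR-193b kept their sign in all 20 alternatives, Aldh2 in 17 and Aldh3a2 in 19. After miR-365a all kept it in all 18, apart from Aldh18a1 in 15. The labels give no replicate numbers, so the array pairs rest on slide and position alone. Signal over background left Aldh1a3, Aldh1a2, Aldh1a7 and Aldh1b1 without a test.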
